A study of Mus musculus with 6 samples.

Results

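The enzymes described are 10 mouse genes of urate breakdown and purine salvage: Xdh, Uox, Urah, Gda, Ada, Pnp, Hprt, Aprt, Ampd3 and Nt5e. They were taken as every probe set that the array annotation assigns to exactly 1 of these symbols, which gave 16 probe sets of 45037 on the array, for 10 genes of 18193. The group was chosen by a measured value of the same comparison, the high level of Urah in doxycycline-treated cells. Urah is therefore given as a description without a test, and the calls of the other 9 genes were read beside the share of calls over the whole array.

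Purines leave the nucleotide pool as nucleosides and bases, which are either salvaged to nucleotides or oxidised to urate. Ada turns adenosine into inosine, Pnp splits inosine and guanosine into free bases, Gda turns guanine into xanthine, and Hprt and Aprt return bases to nucleotides. Xdh oxidises hypoxanthine and xanthine to urate, Uox oxidises urate to 5-hydroxyisourate, and Urah hydrolyses that product on the way to allantoin, a route best known from the liver of mice.

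The 4434 line comes from a Braf-mutant mouse melanoma, and RNA was taken on day 20 of partial reprogramming. All cells carried 2 lentiviral vectors. One holds Klf4, Sox2 and Oct4 (symbol Pou5f1), induced by doxycycline, and a gene for resistance to blasticidin. The other expresses the M2 transactivator with mCherry at all times. The + dox cells received doxycycline and were selected with blasticidin at day 3. The − dox cells were kept in medium without doxycycline, and whether they were selected too is not stated. Effects of doxycycline, of any difference in selection and of the induced factors therefore cannot be told apart. Each group had 3 arrays, and the sources do not state whether these were separate cultures. The p-values therefore set each difference against the spread of these arrays, part of which may be technical. They may be too small for a statement about separate cultures.

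Values are log2 levels from robust multi-array averaging (RMA). They are listed below in the order of arrays 1, 2 and 3, and means are given ± SD of 3 arrays. A difference is + dox minus − dox on the log2 scale, and a probe set was called when its limma p-value, adjusted over all probe sets, was under 0.05. Counts with an unadjusted limma p under 0.05 only describe a list, because their share over all probe sets is not given here. Levels of different probe sets were not compared with each other, because probes differ in brightness. In bulk RNA, fewer cells of a type and less RNA per cell cannot be told apart.

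The arrays separated by group on the first principal component (57.45% of the variance), and + dox array 1 lay nearest to the − dox side, at 15.73 against 58.57 and 72.71 for + dox arrays 2 and 3. The second component (21.59%) set − dox array 1 off, at 59.82 against −29.83 and −34.00 for − dox arrays 2 and 3. Values without these arrays are given for named genes where a call or a direction turned on them, and for some differences and medians. Among the cell type markers they are given only for Dcn. Of 7 melanocyte markers 0 were called by limma (0 with an unadjusted p under 0.05). Mitf read 6.17 to 8.15 and Sox10 6.12 to 6.46 over the 6 arrays, and Tyr and Mlana were under the lower quartile of all values (3.87) on every array. The highest Mitf value was on − dox array 1, against 6.87 and 6.67 on − dox arrays 2 and 3. Of the tissues known for urate handling, 0 of 9 hepatocyte, 0 of 6 proximal tubule and 0 of 5 enterocyte markers were called, with 0, 1 and 0 at an unadjusted p under 0.05. Over all 18193 genes, 2.28% were called higher and 1.15% lower, so a count of 0 in such short lists does not show that a cell type was absent. For the transgenes, the Pou5f1 probe set read 4.77, 5.32 and 4.92 in + dox against 4.13, 4.21 and 4.42 in − dox arrays (difference 0.75, SE 0.17, adjusted p = 0.0754), and neither Sox2 (−0.71, adjusted p = 0.140) nor the 2 Klf4 probe sets (−0.58, adjusted p = 0.493, and 0.16, adjusted p = 0.845) were called. Both Klf4 values rested on − dox array 1, without which they were −0.12 (adjusted p = 0.734) and 0.50 (adjusted p = 0.116). Without + dox array 1 Pou5f1 was called (0.87, adjusted p = 0.0487), and without both arrays numbered 1 Pou5f1 (0.81, adjusted p = 0.0391) and Sox2 (−1.05, adjusted p = 0.00744) were. Whether these probe sets detect the vector transcripts was not analysed here.

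Urah, the hydrolase that acts after Uox, was far higher in + dox cells on both of its probe sets. Probe set 1455186_a_at read 12.45, 13.19 and 13.36 in + dox arrays and 5.32, 5.28 and 5.29 in − dox arrays. The other Urah probe set, 1431786_s_at, read 11.24, 12.61 and 12.53 against 4.59, 4.22 and 4.26. On both probe sets every + dox array was far above every − dox array, and + dox array 1 was the lowest of its group, by 0.83 and 1.33 under the mean of the other 2.

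The difference for Urah was 7.70 (SE 0.23, 95% confidence interval 7.15 to 8.26), which is 208-fold, with means of 13.00 ± 0.48 and 5.30 ± 0.02. On the second probe set it was 7.77 (SE 0.37, 6.89 to 8.65), which is 218-fold. Urah had the highest difference of the 18193 genes. Both probe sets followed each other over the 6 arrays (Pearson r = 0.999), which they share as libraries. Without both arrays numbered 1 the differences were 7.99 and 8.33.

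**Figure D1:**
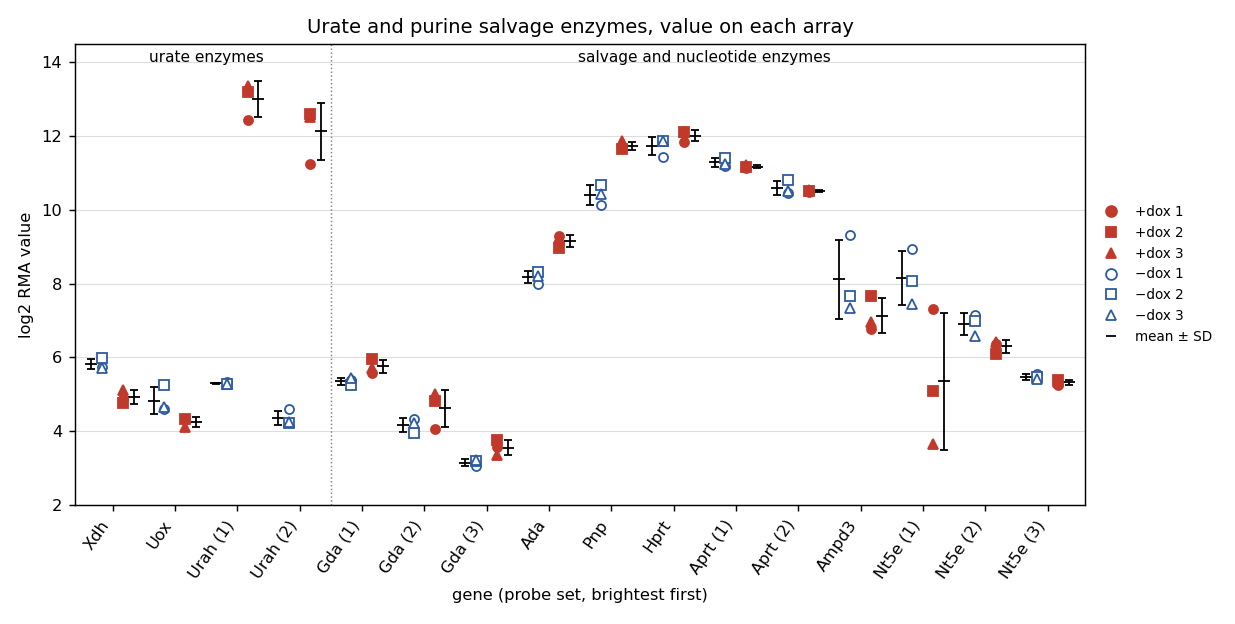
Log2 RMA value of each probe set of the 10 enzymes on each array (filled, + dox; open, − dox), with group means ± SD of 3 arrays beside the points. The Urah probe sets range from 11.24 to 13.36 with doxycycline and from 4.22 to 5.32 without, a distance that no other enzyme comes near, and Nt5e (1) shows the widest spread, from 3.64 to 7.31 within + dox.

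The sequence before the start of Urah is shown with those of Ada and Pnp, the 2 other enzymes that were called higher, because the cells were induced with a POU factor, a SOX factor and a Kruppel-like factor. The windows are the 250 bases before a start site in RefSeq (build GRCm38.p6), printed 5′ to 3′ on the strand of the gene: chr7:140834888-140835137 on the plus strand for Urah, chr2:163750240-163750489 on the minus strand for Ada and chr14:50944053-50944302 on the plus strand for Pnp. Capitals mark a GC box (GGGCGG or its reverse complement CCGCCC) or a CACCC box (CCACCC or its reverse complement GGGTGG).
Urah: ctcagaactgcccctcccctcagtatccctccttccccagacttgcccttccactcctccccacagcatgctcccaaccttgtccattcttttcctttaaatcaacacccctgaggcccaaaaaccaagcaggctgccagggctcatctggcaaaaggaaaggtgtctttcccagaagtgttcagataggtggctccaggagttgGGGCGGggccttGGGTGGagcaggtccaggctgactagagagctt
Ada: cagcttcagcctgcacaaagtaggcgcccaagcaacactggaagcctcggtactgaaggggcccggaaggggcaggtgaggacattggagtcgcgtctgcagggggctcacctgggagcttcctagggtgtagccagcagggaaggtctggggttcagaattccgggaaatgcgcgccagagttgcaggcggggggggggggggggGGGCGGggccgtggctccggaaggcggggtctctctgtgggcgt
Pnp: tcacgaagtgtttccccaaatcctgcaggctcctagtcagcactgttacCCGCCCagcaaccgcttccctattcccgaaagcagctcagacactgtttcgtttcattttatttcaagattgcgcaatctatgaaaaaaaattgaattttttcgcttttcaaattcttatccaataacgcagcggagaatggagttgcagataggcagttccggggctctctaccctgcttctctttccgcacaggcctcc
Urah held 1 GC box and 1 CACCC box, which do not overlap, and Ada and Pnp each held 1 GC box. A second listed start of Urah has a window that overlaps the one shown. The octamer ATGCAAAT and the SOX core CATTGTT, searched on both strands, occurred in 0 of 12 windows of the 9 enzymes with an entry, and in 1.6% and 3.29% of 32851 windows in the table. GC boxes stood in 7 of the 12 windows and in 32.7% of all windows, and CACCC boxes in 5 of the 12 and in 28.1% of all windows. The 7 windows belong to 6 of the 9 enzymes, and the 2 overlapping Urah windows share a GC box. Enzymes that were not called higher held GC boxes too, with 4 matches for Nt5e, 3 for Aprt and 2 for Hprt, overlapping matches included. Uox, Gda and Ampd3 held 0. The share of G and C was 56.4% in the Urah window shown, 67.2% for Ada, 46.8% for Pnp and 72% for Nt5e. The median over all windows was 52.4%, and the counts of boxes were not adjusted for this share. A match is a description of the letters in this window, not a binding site.

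Beside Urah, the 3 enzymes with a called difference were Pnp and Ada, which were higher in + dox cells, and Xdh, which was lower. Over the 14 probe sets of the other 9 genes, 2 were called higher (14.3%), against 1.64% of all 45037 probe sets. Another 1 was called lower (7.14%), against 0.884% of all probe sets. The groups did not overlap on 9 of the 14 (64.3%), against 23.4% of all probe sets. Differences were positive on 6 and negative on 8 of the 14, with a median of −0.10 against 0 over all probe sets. An unadjusted p under 0.05 was found for 8, a count that has no share over all probe sets beside it. With single arrays left out, 0 to 2 were called higher (0 without − dox array 3, + dox array 2 or + dox array 3, and 1 without − dox array 2). The number called lower was 0 without array 2 or array 3 of either group and 2 without + dox array 1, when Nt5e joined Xdh. Calls over the whole array moved the same way. Without + dox array 1, 3.17% of all probe sets were called higher and 2.05% lower. Without array 2 or array 3 of either group, all calls fell from 1138 to between 111 and 197. The 14 probe sets were assembled around this comparison with its results known, and the counts describe them.

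**Figure D2:**
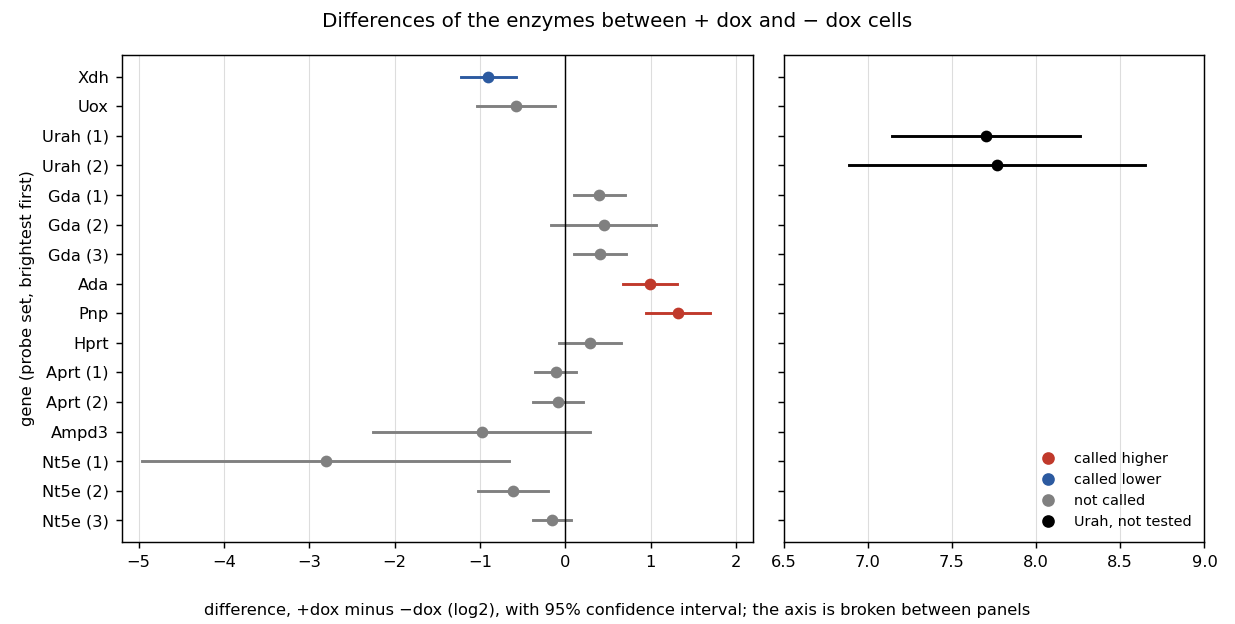
Difference between + dox and − dox cells (log2, 3 arrays per group) with its 95% confidence interval for each probe set, coloured by its call at an adjusted p of 0.05. Pnp (1.32) and Ada (1.0) lie to the right of 0 and Xdh (−0.90) to the left, while Urah is drawn on its own axis at 7.70 and 7.77 and was not tested.

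Of the enzymes on either side of urate, neither rose with Urah. Xdh, which makes urate, read 4.88, 4.75 and 5.12 in + dox arrays and 5.75, 5.98 and 5.72 in − dox arrays (probe set 1451006_at). All 3 + dox values were under all 3 − dox values. Xdh fell by 0.90 (SE 0.13, interval −1.22 to −0.58, 1.87-fold, limma adjusted p = 0.0285). The call was lost without − dox array 2, without − dox array 3, without + dox array 2 and without + dox array 3 (highest adjusted p = 0.116), while the difference stayed between −1.0 and −0.82.

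Uox, the urate oxidase, read 4.34, 4.32 and 4.10 in + dox and 4.60, 5.24 and 4.65 in − dox arrays (1422604_at). The groups did not overlap, and − dox array 2 was the highest. Its difference was −0.58 (SE 0.19, interval −1.03 to −0.12, adjusted p = 0.173), which was not called.

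The nucleoside steps that feed the bases were higher in + dox cells. Pnp (1416530_a_at) read 11.67, 11.66 and 11.87 in + dox and 10.13, 10.67 and 10.44 in − dox arrays. The lowest + dox array was about 1 log2 unit above the highest − dox array. Pnp rose by 1.32 (SE 0.16, interval 0.95 to 1.69, 2.5-fold, adjusted p = 0.0168), and the call was lost without − dox array 3, + dox array 2 or + dox array 3 (highest adjusted p = 0.0902). A probe set shared by Pnp and its neighbouring paralogue Pnp2 (1453299_a_at), which belongs to no single symbol and is not counted here, read 10.56, 10.35 and 10.55 against 8.79, 9.35 and 9.03. It differed by 1.43 (SE 0.16, adjusted p = 0.0143), and the signals of Pnp and Pnp2 cannot be separated on it.

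Ada (1417976_at), the adenosine deaminase, read 9.28, 8.98 and 9.24 in + dox and 7.99, 8.31 and 8.21 in − dox arrays. The groups did not overlap. Ada rose by 1.0 (SE 0.13, interval 0.68 to 1.31, 2.0-fold, adjusted p = 0.0222). Without − dox array 2, − dox array 3, + dox array 2 or + dox array 3 it was no longer called (highest adjusted p = 0.104), with differences of 0.91 to 1.09 over all 6 omissions.

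Gda, the guanine deaminase, had small positive differences on its 3 probe sets, none of them called. On 1435748_at the values were 5.59, 5.96 and 5.71 against 5.39, 5.24 and 5.43, without overlap (0.40, SE 0.13, adjusted p = 0.16). On 1435749_at they were 4.05, 4.81 and 5.0 against 4.34, 3.95 and 4.22, where + dox array 1 lay inside the − dox range (0.45, SE 0.26, adjusted p = 0.427). Without both arrays numbered 1 this probe set differed by 0.82 and was called (adjusted p = 0.0233). The remaining probe set, 1422868_s_at, was under the lower quartile of all values on every array, with + dox values of 3.34 to 3.75 above − dox values of 3.05 to 3.21 (0.41, SE 0.13, adjusted p = 0.162).

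The phosphoribosyltransferases that salvage free bases differed little. Hprt (1448736_a_at), which acts on hypoxanthine and guanine, read 11.84, 12.10 and 12.10 in + dox and 11.44, 11.87 and 11.86 in − dox arrays, which overlap. Its difference was 0.29 (SE 0.15, interval −0.08 to 0.66, adjusted p = 0.386). Without − dox array 1 it was 0.15 (adjusted p = 0.584). Aprt, which acts on adenine, read 11.13, 11.17 and 11.22 against 11.19, 11.42 and 11.25 on 1451703_s_at (−0.11, SE 0.10, interval −0.35 to 0.12, adjusted p = 0.626). On 1423801_a_at it read 10.48, 10.52 and 10.53 against 10.45, 10.82 and 10.51 (−0.08, SE 0.12, adjusted p = 0.790). Groups overlapped on both Aprt probe sets, and the intervals hold changes of less than 2-fold in either direction for Hprt and Aprt.

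Both enzymes that act on AMP had negative differences that were not called. Ampd3 (1422573_at), an AMP deaminase that makes IMP, read 6.77, 7.67 and 6.96 in + dox and 9.33, 7.67 and 7.34 in − dox arrays. The groups overlapped, and − dox array 1 was 1.83 above the mean of the other − dox arrays. The difference was −0.98 (SE 0.53, interval −2.25 to 0.29, adjusted p = 0.401), and it was −0.37 without − dox array 1 and −0.19 without both arrays numbered 1 (adjusted p = 0.737).

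Nt5e, the cell surface enzyme CD73 that makes adenosine from AMP, varied most within a group. Probe set 1428547_at read 7.31, 5.09 and 3.64 in + dox and 8.93, 8.07 and 7.46 in − dox arrays. The groups did not overlap, but + dox array 1 was 2.95 above the mean of the other + dox arrays and close to the lowest − dox array. Its difference was −2.81 (SE 0.90, interval −4.96 to −0.65, 7.0-fold, adjusted p = 0.166). Without + dox array 1 it was −3.79 and called (adjusted p = 0.0255), and without both arrays numbered 1 it was −3.40 (adjusted p = 0.0116).

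The other Nt5e probe sets showed smaller differences of the same sign. On 1422974_at the values were 6.37, 6.10 and 6.42 in + dox and 7.16, 6.98 and 6.59 in − dox arrays (−0.61, SE 0.17, adjusted p = 0.126). On 1459023_at they were 5.25, 5.4 and 5.32 against 5.56, 5.46 and 5.41 (−0.15, SE 0.09, adjusted p = 0.463). Neither pair of groups overlapped, and neither probe set was called.

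**Figure D3:**
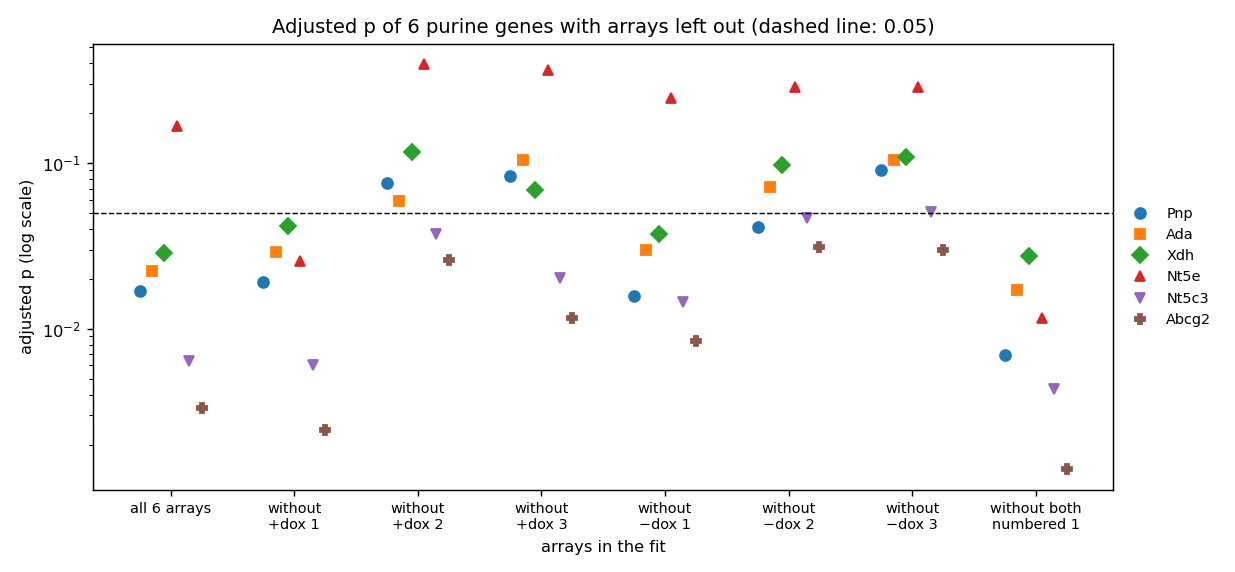
Adjusted p (log scale) of Pnp, Ada, Xdh, the brightest Nt5e probe set, and the pathway genes Nt5c3 and Abcg2, with all 6 arrays and with arrays left out (dashed line, 0.05). Nt5e drops from 0.166 to 0.0255 without + dox array 1, whereas Ada and Xdh exceed 0.05 whenever array 2 or 3 of either group is left out, and Abcg2 stays below it throughout.

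The other genes of purine metabolism were counted in 8 lists of 81 genes, of which 68 had a probe set of their own, each represented by its brightest probe set. Of these, 5 were called higher (7.35%), against 2.28% of all 18193 genes. The 5 include Nt5c3, a nucleotidase known for pyrimidine rather than purine nucleotides. In the other direction, 1 was called lower (1.47%), against 1.15% of all genes. The remaining 62 were not called, and the median difference was 0.06 against 0.01 over all genes. With single arrays left out, 1 to 7 were called higher (1 without − dox array 3, and 2 without − dox array 2, + dox array 2 or + dox array 3). The number called lower was 0 without array 2 or array 3 of either group and 2 without + dox array 1. Without + dox array 1 these were 10.3% higher and 2.94% lower, against 4.17% and 2.81% of all genes. Calls over all probe sets fell too, from 1138 to between 111 and 197, without array 2 or array 3 of either group.

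Of the 68 genes, the urate transporter gene Abcg2 had the lowest adjusted p. Abcg2, an efflux pump that carries urate among other substrates, read 11.14, 11.34 and 11.62 in + dox and 9.53, 9.37 and 9.52 in − dox arrays. Every + dox value exceeded every − dox value. Abcg2 rose by 1.89 (SE 0.14, 3.71-fold, adjusted p = 0.00334), and it stayed called under all 17 alternatives (highest adjusted p = 0.0309). It was the only called gene of 13 measured in urate and nucleoside transport, where the median difference was 0.06 and the gene with the next smallest p, the purine base transporter Slc43a3, differed by −0.24 (adjusted p = 0.407).

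Among 6 genes of urate breakdown and the molybdenum cofactor, on which Xdh depends, 1 was called and the median difference was 0.33. Mocs2, a subunit of molybdopterin synthase, read 9.47, 9.61 and 9.75 in + dox and 9.0, 8.85 and 8.97 in − dox arrays. Mocs2 rose by 0.67 (SE 0.11, adjusted p = 0.0359), without overlap of the groups, and lost its call without array 2 or array 3 of either group (highest adjusted p = 0.142). Mocos, which sulfurates the cofactor of xanthine dehydrogenase, read 7.31, 8.84 and 8.36 against 7.13, 6.65 and 5.91 (1.61, SE 0.45, adjusted p = 0.128). Its groups did not overlap, although + dox array 1 was close to − dox array 1. It was called without + dox array 1 (2.04, adjusted p = 0.0433) and without both arrays numbered 1 (2.32, adjusted p = 0.0077). The median of the 6 genes was 0.09 without − dox array 1. Urad, which acts after Urah, was not analysed here.

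Nucleotidases, which release nucleosides from nucleotides, had 2 genes called higher and 1 lower of 18 measured, with a median difference of 0.06. Nt5c3 is a cytosolic nucleotidase known for pyrimidine rather than purine nucleotides. It read 9.97, 10.03 and 10.31 in + dox and 8.77, 8.77 and 8.83 in − dox arrays (1.31, SE 0.12, adjusted p = 0.00636). The groups were more than 1 log2 unit apart, and the call was lost only without − dox array 3 (adjusted p = 0.0506). Samhd1, a dNTP hydrolase, read 9.05, 9.18 and 9.29 against 8.63, 8.61 and 8.51 (0.59, SE 0.10, adjusted p = 0.0418). Its call was lost in 9 of 17 alternatives, including the omission of each array other than + dox 1, and 2 of its 4 other probe sets had the opposite sign.

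Acpp, the prostatic acid phosphatase that also acts on AMP outside the cell, read 6.48, 4.56 and 4.37 in + dox and 8.16, 8.75 and 8.35 in − dox arrays. Like Nt5e, its + dox array 1 was the highest of the group, and the groups did not overlap. On 1441975_at Acpp fell by 3.28 (SE 0.55, adjusted p = 0.0388), and with the mean of its probe sets by 1.68, which was not called (adjusted p = 0.0634). The difference on 1441975_at was −3.96 without + dox array 1 (adjusted p = 0.00114). Its call was lost without array 2 or array 3 of either group (highest adjusted p = 0.151).

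The branch to AMP and GMP had 1 gene called higher of 4 measured, with a median difference of 0.10. Impdh1, an IMP dehydrogenase on the way to GMP, read 8.60, 8.49 and 8.70 in + dox and 7.96, 7.88 and 7.68 in − dox arrays. It rose by 0.76 (SE 0.11, adjusted p = 0.0299), without overlap, and lost its call without array 2 or array 3 of either group (highest adjusted p = 0.125). Adssl1, an adenylosuccinate synthase known from muscle, read 8.97, 6.95 and 5.97 against 10.54, 9.52 and 9.67. As for Nt5e and Acpp, + dox array 1 was the highest of its group, and the difference of −2.61 (SE 0.74, adjusted p = 0.127) was not called. Without + dox array 1 it was −3.45 and called (adjusted p = 0.0134), and without both arrays numbered 1 it was −3.14 (adjusted p = 0.00415). The median of the branch was 0.02 without − dox array 1.

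In the remaining lists no gene was called by limma with all 6 arrays. De novo purine synthesis had 10 genes measured, a median difference of −0.0034 and 3 genes with an unadjusted p under 0.05. The lowest p-values belonged to the phosphoribosyl pyrophosphate synthetases, with Prps2 at −0.47 (adjusted p = 0.130) and Prps1 at 0.31 (adjusted p = 0.135). Nucleoside kinases and further salvage genes (13 measured, 2 with an unadjusted p under 0.05) had a median of 0.05, with Ak4 at 0.64 (adjusted p = 0.0969) and Guk1 at 0.47 (adjusted p = 0.127). Ak4 was called without + dox array 1 (0.80, adjusted p = 0.0245) and Guk1 without − dox array 1 (0.59, adjusted p = 0.0416). Another probe set of Ak4, 1421829_at, was called with all arrays at 0.76 (adjusted p = 0.0381). Without − dox array 1 the medians of both lists were −0.14 and 0.0083.

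The single adenosine receptor measured, Adora3, differed by −0.10 (adjusted p = 0.708, and not under 0.05 unadjusted). The 3 ribonucleotide reductase genes had a median of 0.44 and 0 with an unadjusted p under 0.05. Rrm1 differed by 0.44 (SE 0.51, adjusted p = 0.728) and Rrm2 by 0.54 (SE 0.60, adjusted p = 0.714). Both positive differences and the median rested on − dox array 1, with 9.90 for Rrm1 and 9.99 for Rrm2 against 11.80 and 12.24 on − dox array 2. Without it the direction turned, to −0.19 for Rrm1 (adjusted p = 0.563) and −0.20 for Rrm2 (adjusted p = 0.696), with a median of −0.19.

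**Figure D4:**
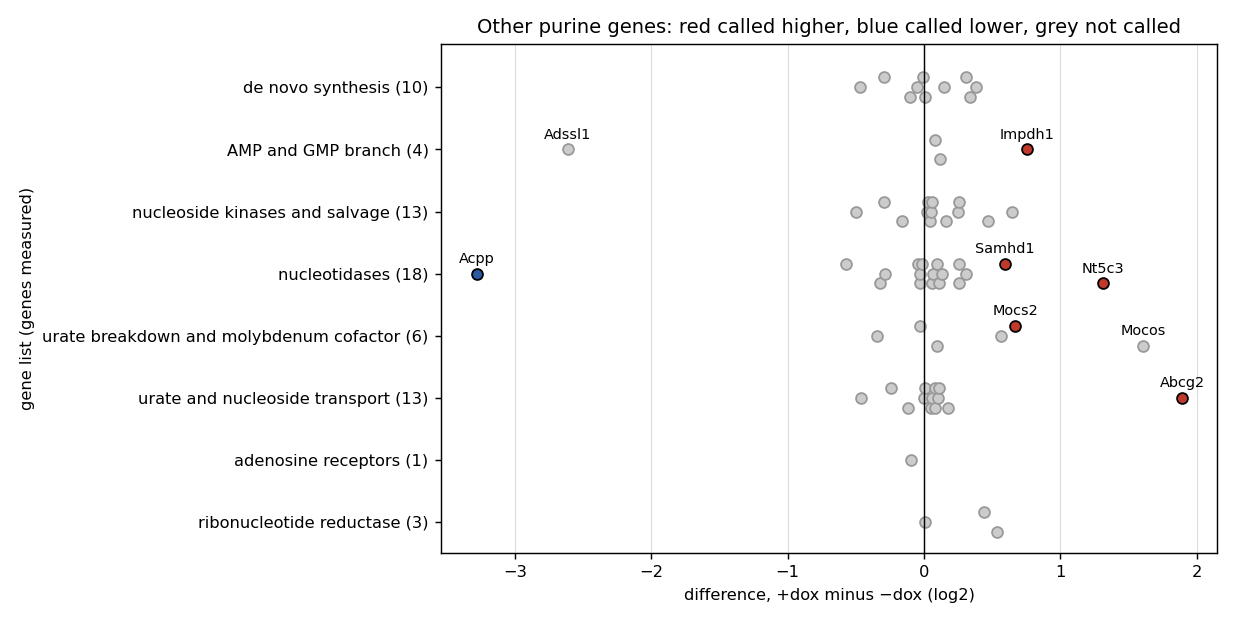
Difference between + dox and − dox cells (log2) of the 68 further purine genes, 1 point per gene at its brightest probe set, arranged by list, with called genes filled in red (higher) or blue (lower). Most genes sit near 0, while Abcg2 (1.89) and Nt5c3 (1.31, known for pyrimidine nucleotides) stand out on the right and Acpp (−3.28) on the left.

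Position on the chromosome was not used to choose the enzymes, and the genes beside Urah were examined. The 5 nearest measured genes on each side, in RefSeq order, differed by −0.47 to 0.93, 0 of 10 were called by limma, and 0 had an unadjusted p under 0.05. Groups overlapped for all 10 with every array included, for 7 of 10 without − dox array 1 or without + dox array 1, and for 3 of 10 without both. With every array, 23.4% of all probe sets had groups that did not overlap. Fewer arrays leave groups less room to overlap, and the share over all probe sets is not given for the omissions. The counts with arrays left out therefore do not show that the neighbours changed with Urah. The nearest measured gene on one side, C330022C24Rik, differed by 0.15. On the other side the nearest was Zfp941, with 5.62, 6.42 and 5.91 in + dox and 5.92, 4.67 and 4.56 in − dox arrays (0.93, SE 0.39, adjusted p = 0.275), where − dox array 1 lay inside the + dox range. Without − dox array 1 Zfp941 differed by 1.37 and was called (adjusted p = 0.0416). Bet1l, at 0.36 with all arrays, differed by 0.60 without − dox array 1 (adjusted p = 0.0879) and was called at 0.69 without both arrays numbered 1 (adjusted p = 0.0276). These 2 were the neighbours called under any of the 3 omissions. Over all genes, 2.87% were called higher without − dox array 1 and 7.96% without both arrays numbered 1.

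**Figure D5:**
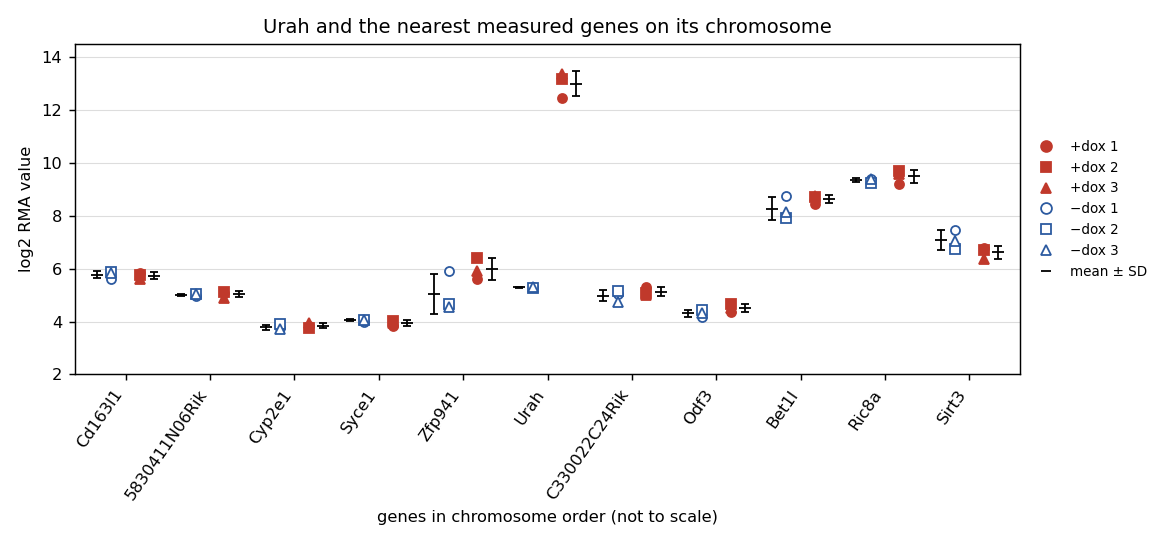
Log2 RMA value of Urah and of the 5 nearest measured genes on each side of it, by array (filled, + dox; open, − dox), with means ± SD of 3 arrays. Urah rises from 5.30 to 13.00 on average, and the groups of all 10 neighbours overlap when every array is included, with − dox array 1 alone inside the + dox range for Zfp941.

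Of the 152 other genes with a difference of at least 2, the 5 whose values followed Urah most closely over the 6 arrays were Nipal1, Aldh3a1, Serpinb9b, Scg5 and Ifi209, with Pearson r of 0.998 to 0.999. The r describes genes already chosen for a high difference on the same 6 arrays, and no p was computed. Aldh3a1, an aldehyde dehydrogenase, read 10.25, 11.49 and 11.68 in + dox and 3.77, 3.68 and 3.79 in − dox arrays (difference 7.39). As for Urah, + dox array 1 was the lowest of its group for all 5.

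Markers of cell types were set beside these results. Of 45 measured markers in 7 lists, the melanocyte list included, 1 was called, the keratin Krt14, and 3 had an unadjusted p under 0.05. The 3 were Krt14, Dcn and the proximal tubule gene Lrp2 (−0.98, limma adjusted p = 0.151, with overlapping groups). The shares over all genes were 2.28% called higher and 1.15% called lower. Krt14 read 8.21, 7.68 and 8.77 in + dox and 4.67, 4.47 and 4.50 in − dox arrays (3.67, adjusted p = 0.00279). The summed level of the 7 keratinocyte markers (log2 of the sum) ranged from 8.74 to 9.38 with doxycycline and from 7.66 to 7.92 without it. Among them, Krt5 read 4.58 to 4.86 and Trp63 was under the lower quartile on every array. Krt14 was the highest of the 7 on every + dox array and weighs most in their sum. Krt5, Krt1, Trp63, Ivl and Lor differed by −0.15 to 0.09. Krt10 was not called (adjusted p = 0.363), with its − dox array 1 inside the + dox range. The summed level of 6 fibroblast markers was 7.92 to 8.22 against 7.44 to 7.75, with 0 called and 1 at an unadjusted p under 0.05. That gene was Dcn, with + dox values of 7.13 to 7.68 above − dox values of 6.36 to 6.78 (0.85, adjusted p = 0.07, and 1.01 and called without + dox array 1, adjusted p = 0.0275), while Col1a1, Col1a2, Lum, Pdgfra and Thy1 differed by −0.10 to 0.04. Hepatocyte markers, of a tissue that uses the urate pathway, summed to 8.03 to 8.25 against 8.04 to 8.21. Of 5 macrophage and leukocyte markers 0 were called. Among these, Cd68 read 6.40, 7.06 and 7.12 in + dox and 7.14, 4.91 and 4.82 in − dox arrays (adjusted p = 0.365), where only − dox array 1 was above the + dox range. The part of the keratinocyte and fibroblast markers in the differences of Urah, Pnp, Ada and Xdh was not tested.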

How the data were processed

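Gene expression was measured on 6 Affymetrix GeneChip Mouse Genome arrays, 3 of + dox and 3 of − dox cells, grouped by their labels. The deposited values are log2 levels per probe set, which the authors made from the scanner files by RMA in Chipster. The scale is not stated and was read from the values (2.08 to 14.44, array medians of 5.33 to 5.37). Neither the Chipster version nor the chip definition is given in the sources used here. No depth exists for arrays, so their number limits the precision.

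Probe sets were named from the platform annotation, with 34945 given 1 symbol and 932 several, and 64 array controls were left out. All 10 enzymes matched the RefSeq table. A linear model with group alone was fitted to all 45037 probe sets in limma 3.58.1 (lmFit, eBayes; R 4.3.3), and two-sided p-values were adjusted over them by Benjamini-Hochberg, with 0.05 as the threshold. The fit was tested on simulated data. Figures were drawn with matplotlib 3.10.9 in Python 3.11.15.

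The enzymes, the purine and marker lists and the tests were chosen with earlier results of these data known. Genes named were all enzymes with every probe set, in each further list up to 4 called genes (or, with fewer than 2 called, the 2 of lowest p), 5 neighbours on each side of Urah, the 5 genes most like it and the transgenes. The alternatives tried were a replicate block, gene-level fits, leaving out the dimmest 20% or 40% of probe sets, trend and robust eBayes, renormalised columns, omission of arrays and a threshold of 0.01. The second Ak4 probe set, that of Pnp2 and the single marker genes were named after their values were seen.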

Additional observations from a re-analysis of the deposited data

How the results depend on the processing

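The main counts were 2 enzyme probe sets higher, 1 lower, 5 further purine genes higher and 1 lower. The labels do not state whether the replicate numbers pair the arrays, and 3 arrays per group cannot settle it. Correlations of same-numbered deviations were −0.052, −0.038 and 0.212, and 2 of 6 arrays correlated best with their own number. The main fit used no pairing. With the replicate block the counts were 1, 0, 2 and 0, and calls over the array fell from 1138 to 466. Pnp kept its call under the block (adjusted p = 0.0477), and Ada (0.0676) and Xdh (0.0768) did not. Nt5e on 1428547_at came to a limma adjusted p of 0.068 under the block, against 0.166 in the main fit. At a threshold of 0.01 the counts were 0, 0, 2 and 0. With the mean of all probe sets of a gene, 3 further genes were higher and 0 lower, and with eBayes trend 3 were higher. Without both arrays numbered 1, 3 enzyme probe sets were higher and 2 lower, and 8 further genes were higher (11.8%) and 4 lower (5.88%). Calls over the array then rose to 5142, with 7.96% of all genes higher and 6.94% lower. With single arrays left out, enzyme probe sets called higher ranged from 0 to 2 and lower from 0 to 2, further genes called higher from 1 to 7 and lower from 0 to 2, and calls over the array from 111 without − dox array 3 to 2351 without + dox array 1. The difference of Aprt on 1423801_a_at turned to 0.03 without − dox array 2 (range −0.155 to 0.03, adjusted p up to 0.914). Leaving out the arrays numbered 1 for further genes named singly was chosen after seeing the data. Without − dox array 1 Rrm1 turned to −0.19 and Rrm2 to −0.20, against 0.35 and 0.41 without + dox array 1, and without both they were −0.29 and −0.33. The mean of probe sets brought Nt5e to −1.19, Nt5c3 to 0.71, Samhd1 to 0.14 and Acpp to −1.68. Urah stayed between 7.52 and 7.99 under its 17 alternatives. The cause of these changes was not tested, beyond the fewer arrays fitted in the omissions. With 3 arrays per group, a small difference such as that of Hprt or Aprt cannot be told from none.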
